A study of Mus musculus with 2 samples.

Results

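Rab GTPases are small membrane switches, and their mRNAs were measured in macrophages, primary cells obtained by culturing bone marrow of the C57BL/6J strain. The members are the 59 protein-coding genes whose symbol is Rab, a number and at most a paralog letter, of 55536 mouse genes in the tables. All cells were stimulated for 120 minutes with 100 ng/ml lipid A, the membrane anchor of bacterial lipopolysaccharide, according to the free-text description, while the treatment and source fields name lipoprotein A. The single group holds 2 libraries of polyadenylated RNA, labelled biological replicates 1 and 2, and both records name 1 donor. Separate animals are therefore not stated despite that label, the spread may be technical, and no genotype, age or sex was given. No unstimulated library was analysed here, so each value is a level in treated cells and not a response.

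A Rab protein is loaded with GTP by an exchange factor on one membrane, recruits effectors such as tethers and motors, and is switched off by a GTPase-activating protein. A GDP dissociation inhibitor then carries the inactive, prenylated protein through the cytosol to its next membrane. Each organelle carries its own set of Rabs, and in macrophages the passage from Rab5 to Rab7 marks the maturation of a phagosome into a degradative compartment.

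The tables held 33272581 estimated counts on mouse genes in replicate 1 and 50266403 in replicate 2. A limit of 3 counts, which a count of 0 allows, corresponds to 0.0902 and 0.0597 CPM, the count after scaling to library size. This limit covers counting error alone. All 8 genes of the macrophage list reached 1 TPM (the abundance of transcripts after division by length and scaling to library size) in both libraries, although Rab7 and Rab5c are themselves on that list. Among the others, the lysozyme gene Lyz2 stood at 16400.3 ± 4077 TPM (SD, n = 2) and the growth factor receptor gene Csf1r at 678 ± 71.1 TPM. T cell, B cell, mast cell, stromal and erythroid lists each summed to under 4 TPM in both libraries, and the dendritic cell list to 12.4 and 6.75 TPM.

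Of the 59 Rab genes, 38 reached 1 TPM in both libraries, compared with 43.8% of all protein-coding genes. At 10 TPM or more in both there were 30 members, against 25.4% of protein-coding genes, and at 100 TPM or more there were 9, against 5.03%. Those 9 were Rab7, Rab8b, Rab5c, Rab11a, Rab5b, Rab1a, Rab8a, Rab14 and Rab32. The members summed to 3192 TPM in replicate 1 and 3130 TPM in replicate 2, or 0.319% and 0.313% of all TPM. The leading 3 genes held 32.5% and 33.9% of that sum, and the leading 10 held 62.8% and 62.4%. The order of levels was only partly resolved: of 58 neighbouring pairs in the ranking, 39 had library ranges that overlapped.

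**Figure D1:**
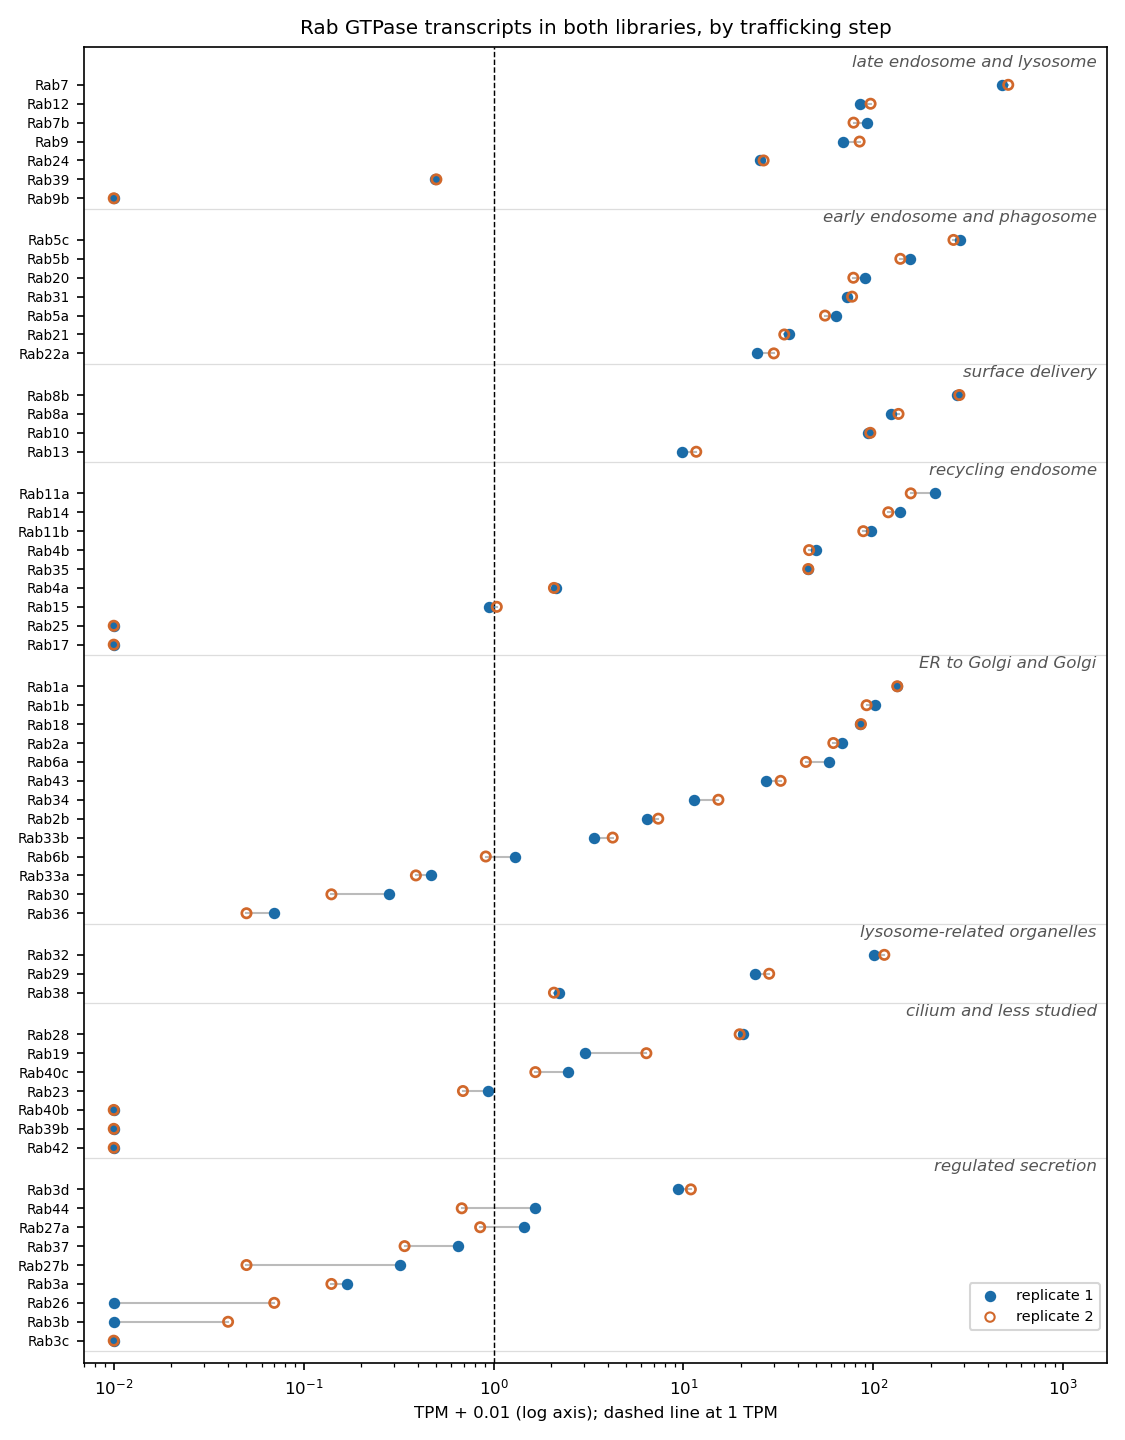
TPM of each of the 59 Rab genes (log axis, with 0.01 added so that 0 can be drawn) in replicate 1 (filled) and replicate 2 (open), grouped by trafficking step. The 38 genes right of the dashed line in both libraries include all 7 of the early endosome, while 1 of 9 regulated secretion genes lies there.

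Late endosome and lysosome genes carried the largest of the 8 step sums in this grouping, with 750 TPM in replicate 1 and 800 TPM in replicate 2 (775 ± 35.2, SD, n = 2). Each gene was placed in a single step, including genes that act between compartments. The order of the sums depends on these placements, and others were not tested. Rab7, the switch for fusion of late endosomes and phagosomes with lysosomes, is at chr6:87999106-88045270 on the minus strand of GRCm38 (gene ENSMUSG00000079477.9). It stood at 479 TPM in replicate 1 and 513 TPM in replicate 2, above every other member in both libraries, and made up 63.8% and 64.1% of the step. Rab12, which acts on traffic from recycling endosomes to lysosomes, stood at 85.3 and 96.7 TPM. Rab7b, linked to transport between endosomes and the Golgi, stood at 92.1 and 78.7 TPM. Rab9, which returns mannose 6-phosphate receptors to the Golgi, stood at 68.9 and 84.7 TPM, with the widest gap between libraries of this step, among genes with a mean count of at least 50, at a log2 ratio of 0.43. The library range of Rab7b overlapped those of Rab12 and Rab9. The autophagy-linked Rab24 was lower, at 25.2 and 26.4 TPM. Rab39, described on maturing phagosomes, was at 0.48 and 0.49 TPM, and Rab9b had 0 counts in both libraries.

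Early endosome and phagosome genes followed with 728 and 678 TPM, and in this grouping the library ranges of this step and the late endosome did not overlap. All 7 genes of the early endosome step were expressed. The 3 Rab5 genes encode the switch for fusion of early endosomes and were all above 50 TPM. Rab5c stood at 285 and 264 TPM, Rab5b at 156 and 139 TPM, and Rab5a at 63.6 and 55.7 TPM. None of these ranges overlapped, and Rab5c was 1.83-fold above Rab5b in replicate 1 and 1.90-fold in replicate 2. Their coding sequences were 71.0% identical between Rab5b and Rab5c, 74.1% between Rab5a and Rab5b and 68.1% between Rab5a and Rab5c. These values use the longest annotated frame and count gaps as differences. For Rab5c that is Rab5c-201, with 234 codons but 2.26% and 2.5% of its TPM. The main form Rab5c-202 has 216 codons, so the extra codons lower both Rab5c values. The stretch around the phosphate-binding loop (the Walker A motif, which holds the nucleotide phosphates) is given to show how paralogs that share a loop still differ in sequence. Each line has 48 bases of the coding sequence, 24 for the loop with 12 on either side, and capitals mark the 13 positions at which the 3 genes differ.
Rab5a: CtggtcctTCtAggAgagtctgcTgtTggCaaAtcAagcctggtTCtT
Rab5b: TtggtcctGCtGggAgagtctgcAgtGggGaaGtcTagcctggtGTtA
Rab5c: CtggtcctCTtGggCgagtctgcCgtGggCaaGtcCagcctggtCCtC

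Rab20, found on maturing phagosomes, stood at 90.7 TPM in replicate 1 and 78.5 TPM in replicate 2. Rab31, which links the trans-Golgi network and endosomes, stood at 72.8 and 77.3 TPM, and its close relative Rab22a at 24.3 and 29.9 TPM. Rab21, a regulator of integrin uptake, lay between that pair with 35.9 and 34.0 TPM. Rab22a had the widest gap between libraries in this step, at a log2 ratio of 0.34. For Rab31 and Rab22a the coding sequences were 68.2% identical, and the level of Rab31 was 3.0-fold and 2.58-fold that of Rab22a.

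Surface delivery genes, which guide vesicles from the Golgi and endosomes to the plasma membrane, summed to 502 and 528 TPM. Rab8b stood at 274 and 284 TPM, a library range that overlapped that of Rab5c. Rab8a stood at 124 and 136 TPM, with the widest gap of the 3 leading genes of this step at a log2 ratio of 0.24. Rab10, described in the delivery of Tlr4 to the macrophage surface, stood at 93.5 and 96.4 TPM. Rab13, best known from epithelial junctions, was far lower, at 9.87 and 11.7 TPM, with a log2 ratio of 0.37. The level of Rab8a depended on 1 short transcript, described further on, and by coding transcripts alone it was 33.7 and 36.4 TPM.

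Recycling endosome genes summed to 546 TPM in replicate 1 and 460 TPM in replicate 2. Rab11a, the switch of the slow recycling route, stood at 212 and 157 TPM, and its paralog Rab11b at 97.5 and 88.5 TPM. Rab25, the epithelial relative of that pair, had 0 counts in both libraries. Rab14, which acts between the trans-Golgi network, endosomes and early phagosomes, stood at 138 and 120 TPM. Rab35, of a fast recycling route, was at 45.5 and 45.4 TPM. The loop stretches below put the expressed Rab11 pair beside Rab25, with capitals at the 15 positions where they differ.
Rab11a: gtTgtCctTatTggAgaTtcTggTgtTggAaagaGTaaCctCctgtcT
Rab11b: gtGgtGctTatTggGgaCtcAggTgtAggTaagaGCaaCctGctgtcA
Rab25: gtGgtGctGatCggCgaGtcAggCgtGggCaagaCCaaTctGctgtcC

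The fast recycling pair Rab4a and Rab4b was far more unequal than the Rab11 pair. Rab4b stood at 49.7 TPM in replicate 1 and 45.9 TPM in replicate 2, and Rab4a at 2.11 and 2.07 TPM, a 23.5-fold and 22.2-fold difference. Their coding sequences were 73.1% identical, and capitals in the same stretch mark 12 differing positions.
Rab4a: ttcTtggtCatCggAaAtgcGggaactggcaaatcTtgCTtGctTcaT
Rab4b: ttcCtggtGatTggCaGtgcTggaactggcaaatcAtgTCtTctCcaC
Rab15, known mainly from neurons, stood at 0.94 and 1.03 TPM with 36 and 92 counts, a log2 ratio of 0.92. It was at the 1 TPM level in 1 library only. Rab17, described in polarised epithelia, had 0 counts in both.

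Genes of the route from the endoplasmic reticulum to the Golgi and within the Golgi summed to 499 and 478 TPM, of which 9 of 13 were expressed. Rab1a and Rab1b, the switches for transport between these organelles, stood at 133 and 134 TPM and at 102 and 92.1 TPM. Rab18, linked to lipid droplets, was at 85.4 and 86.0 TPM. Rab2a, which acts in Golgi and lysosomal traffic, was at 68.8 and 61.5 TPM, against 6.43 and 7.36 TPM for its paralog Rab2b. Rab6a, of retrograde Golgi transport, was at 58.7 and 44.1 TPM, against 1.29 and 0.90 TPM for Rab6b, which is known from neurons. Thus 1 paralog of Rab2 and of Rab6 carried most of the signal.

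The remaining Golgi genes covered a wide range. Rab43 stood at 27.1 and 32.5 TPM. Rab34, which positions lysosomes, was at 11.4 and 15.3 TPM, with the widest gap among genes of this step with a mean count of at least 50, at a log2 ratio of 0.48. The autophagy-linked Rab33b was at 3.36 and 4.23 TPM, against 0.46 and 0.38 TPM for Rab33a. Rab30 and Rab36 were below 0.3 TPM in both libraries, with 9 and 7 counts for Rab30 and 4 and 3 counts for Rab36.

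Lysosome-related organelle genes were few but all expressed, with sums of 127 and 145 TPM. Rab32, linked to host defence and to lysosome-related organelles, stood at 101 and 114 TPM. Its paralog Rab38, known for melanosomes, stood at 2.19 and 2.07 TPM, so that Rab32 was 46.1-fold and 55.2-fold higher. Rab29, a partner of the Rab kinase Lrrk2, stood at 23.7 and 28.3 TPM, with the widest gap of the 3 at a log2 ratio of 0.35.

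Regulated secretion genes were the lowest step, with 13.5 and 13.0 TPM over 9 genes. Rab3d, of secretory granules, was the 1 gene above 1 TPM in both libraries, at 9.33 and 10.9 TPM. Rab27a, which docks secretory granules, stood at 1.43 and 0.84 TPM with 88 and 75 counts, and Rab44 at 1.64 and 0.67 TPM with 82 and 64 counts. Both were lower in replicate 2, with log2 ratios of -0.66 and -0.79. Rab37, described in mast cells, had 28 and 21 counts, and Rab27b had 24 and 4 counts. Rab27b stood at 0.31 and 0.04 TPM, and in the second quantification at 0.35 and 0.17 TPM with 36 and 34 counts, lower in replicate 2 in both but by less in the second. Rab3a, of synaptic vesicles, had 4 and 5 counts. Rab3b and Rab26 had 0 counts in replicate 1 and 2 in replicate 2, and Rab3c had 0 in both.

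Markers of other marrow cells also differed between the libraries. Of all genes with a mean count of at least 50, here called testable, 2.14% were 2-fold or more lower in replicate 2 and 1.85% higher. The granulocyte list summed to 574 TPM in replicate 1 and 109 TPM in replicate 2, and 4 of its 6 testable genes were 2-fold or more lower in replicate 2. The megakaryocyte and platelet list summed to 933 and 238 TPM, with all 3 testable genes 2-fold or more lower. Its leading marker Pf4 was at 916 and 236 TPM, and the granulocyte marker S100a9 at 266 and 41.2 TPM. Of the dendritic cell list 2 of 4 testable genes were 2-fold or more lower, and so was the 1 testable erythroid gene. The 1 testable mast cell gene, Kit, went the other way, with 57 and 373 counts and a log2 ratio of 2.28. None of the 10 granulocyte markers and 6 megakaryocyte markers was at 0 in both libraries. The part of any of these cell types in the values of Rab27a, Rab44 and Rab37 was not tested. In bulk RNA a change in the number of cells of a type and in RNA per cell cannot be told apart.

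Ciliary and less studied genes summed to 27.0 and 28.5 TPM. Rab28, a ciliary Rab, stood at 20.6 and 19.8 TPM. Rab19 stood at 3.02 and 6.37 TPM with 88 and 273 counts. Rab40c, which belongs to a ubiquitin ligase, stood at 2.45 and 1.65 TPM. Rab23, a regulator of Hedgehog signalling, was below 1 TPM in both, at 0.93 and 0.68 TPM with 41 and 65 counts. Rab40b, Rab39b and Rab42 had 0 counts in both.

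In all, 21 Rab genes were not at 1 TPM in both libraries. Of these, 4 reached the level in 1 library only, 8 stayed below it in both with counts in both, 2 had counts in 1 library only, and 7 had 0 counts in both. Of the last 7, Rab17, Rab25, Rab39b and Rab40b also had 0 counts in the second quantification. That quantification gave 7 and 4 counts to Rab3c, 2 and 0 to Rab42, and 6 and 0 to Rab9b, which placed those 3 genes near the detection limit. Genes without counts were not detectable at this depth.

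Paralogs were compared in 17 subfamilies of 2 to 4 genes. In 15 of these at least 1 member was at 1 TPM in both libraries, in 9 there were 2 or more, and in 6 exactly 1. Neither Rab27 gene and neither Rab39 gene reached the level. The leading member's share of subfamily TPM had a median of 90.4% over the 15 subfamilies and was over 90% in both libraries in 7. Rab4b held 95.8% ± 0.171 (SD, n = 2), Rab6a 97.9% ± 0.106, Rab32 98.0% ± 0.244 and Rab3d 98.4% ± 0.172 of their subfamilies. Rab7 held 85.3% ± 2.01 against Rab7b, and Rab2a 90.4% ± 1.51. At the other end, Rab1a held 57.9% ± 1.87 and Rab5c 57.1% ± 0.778, the only 2 leading shares below 60% in both libraries in this grouping. The shares depend on the grouping, which left out some relatives. With Rab29, nearest to Rab38 at 61.8% coding identity, Rab32 held 79.6% and 79.0%. With Rab10 and Rab13, nearest to Rab8b at 69.7% and 68.1%, Rab8b held 54.7% and 53.8%. Rab14 was nearest to Rab4a at 62.1% and stood at 138 and 120 TPM, against 49.7 and 45.9 TPM for Rab4b. Rab4b would thus not lead a group that included Rab14.

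**Figure D2:**
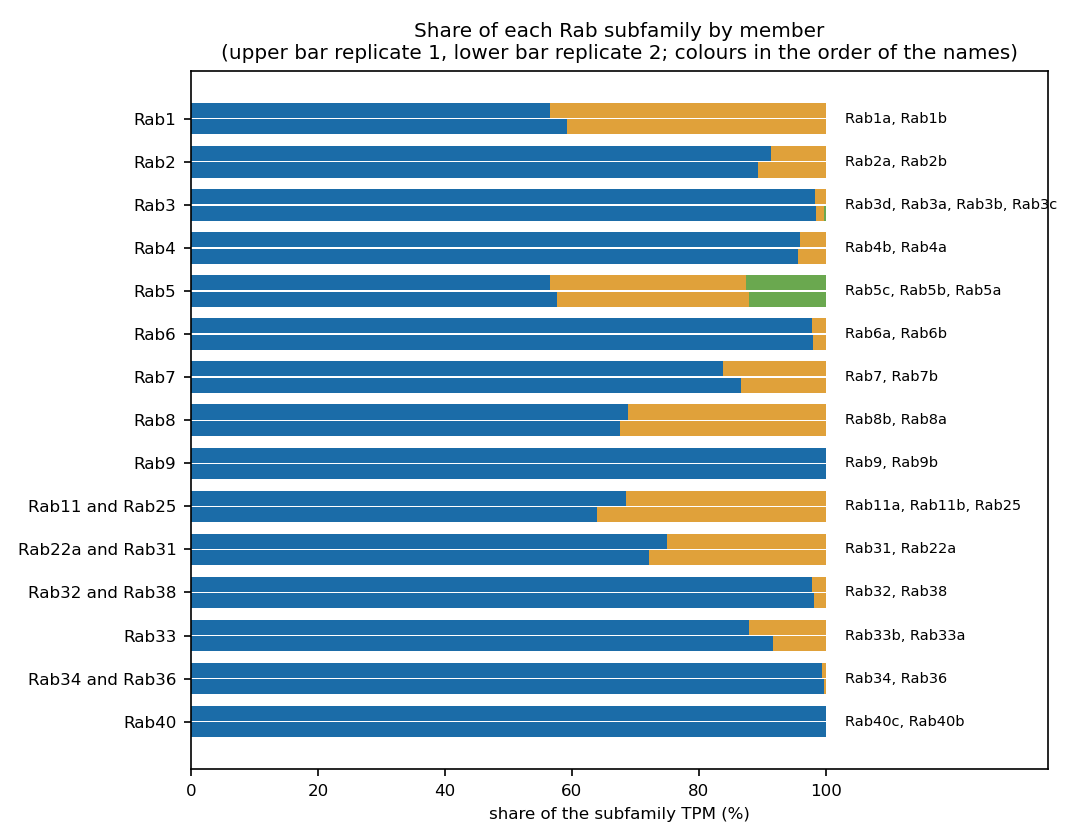
Share of subfamily TPM (%) held by each paralog in replicate 1 (upper bar) and replicate 2 (lower bar), for the 15 subfamilies with a member at 1 TPM in both libraries; colours follow the order of the names at the right. Rab1 and Rab5 have the leading shares below 60%, and Rab11a, Rab8b and Rab31 lead with 66.3%, 68.2% and 73.5%.

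Coding identity was similar in some even and uneven pairs. The Rab6 pair, with a 97.9% leading share, was 78.5% identical in coding sequence, and the more even Rab1 pair was 76.1% identical. The Rab8 pair was 77.5% identical. Its leading share was 68.2% over all transcripts but 88.8% over coding transcripts alone. Rab7 and Rab7b were 59.9% identical, and the low pairs Rab27a with Rab27b and Rab39 with Rab39b 67.5% and 71.3%.

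The libraries gave similar levels for most members. Of 43 Rab genes whose mean count was at least 50, 1 was 2-fold or more apart between libraries on TMM-normalised CPM, compared with 3.99% of 10443 genes of that depth. That gene was Rab19, higher in replicate 2 by 2.30-fold (log2 ratio 1.20), where 1.85% of genes were 2-fold or more higher. No Rab gene was 2-fold or more lower, against 2.14% of genes. The second quantification gave Rab19 116 and 368 counts. On log2 of TPM + 1 no member was 2-fold apart, and at a count minimum of 200 Rab19 is not among the genes compared, so the call is lost under both. Within 1.5-fold were 38 members, or 88.4%, against 85.4% of genes. With 1 library on each side these differences have no replicate check. The coefficient of variation between the libraries beyond counting error was 21.5%, over 12178 genes with at least 10 counts in both.

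The direction of the small differences depended on the scaling. With TMM, 30 members were higher in replicate 2 and 13 lower, and their median log2 ratio was 0.10 against 0.03 over all genes. On CPM without TMM factors, 20 were higher and 23 lower, with medians of -0.06 for members and -0.14 for all genes. On log2 of TPM + 1, 21 were higher and 22 lower. No common direction of the members can be read from these libraries.

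**Figure D3:**
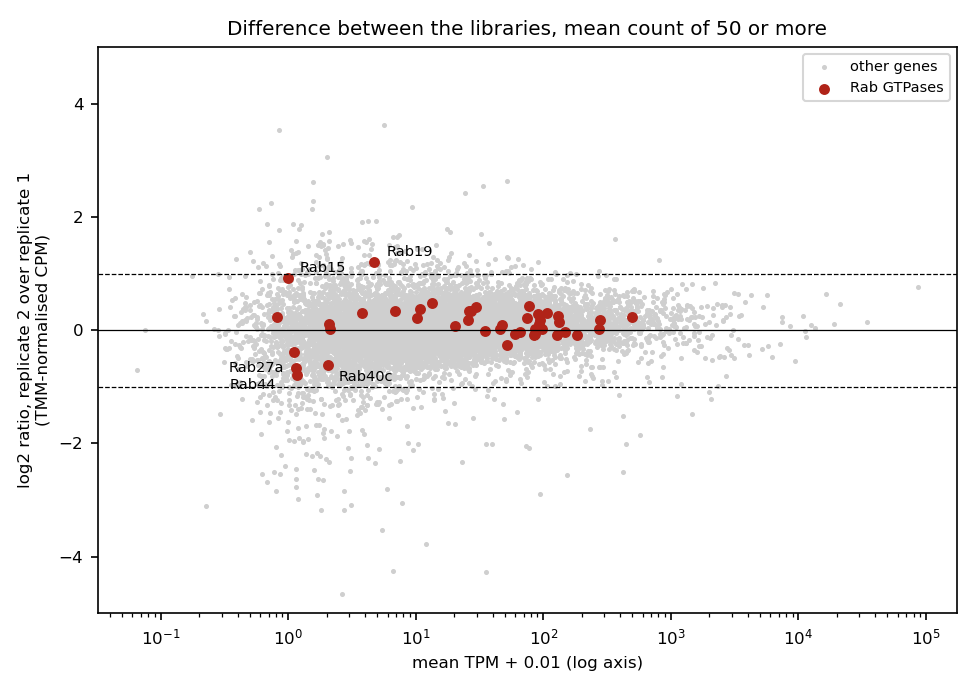
Log2 ratio of replicate 2 over replicate 1 (TMM-normalised CPM) against mean TPM (log axis) for Rab genes (red) and other genes (grey), all with mean counts of at least 50; dashed lines mark 2-fold and 2 other genes lie outside the axis. Rab19 is the 1 red point beyond a dashed line, and the points furthest from 0 lie at low levels.

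Transcript tables showed which mRNA forms carried these levels. The 38 expressed members had 165 annotated transcripts, of which 100 were protein-coding. Of 33 members with more than 1 transcript, 31 had the same leading transcript in both quantifications, the exceptions being Rab6a and Rab40c. The leading transcript held a median of 89.4% of gene TPM and over 90% in 16 members. It was under 50% in 3 members, Rab11a, Rab18 and Rab40c, and next lowest were Rab6a and Rab29. Rab6a-203 held 56.5% and 45.9% of its gene, Rab29-201 56.8% and 47.9%, Rab18-203 35.8% and 31.7%, and Rab40c-209 52.2% and 18.8%. The share of TPM on coding transcripts had a median of 99.6% in either quantification, and was below 80% in 4 members.

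Rab8a (ENSMUSG00000003037.16, chr8:72161200-72183904, plus strand, GRCm38) had the lowest coding share. Its retained-intron transcript Rab8a-202 held 90.4 TPM in replicate 1 and 98.4 TPM in replicate 2, and the coding transcript Rab8a-201 held 33.7 and 36.4 TPM. The coding share was therefore 27.0% ± 0.221 (SD, n = 2), and 28.2% ± 0.670 in the second quantification. By estimated counts the order was the other way. Rab8a-201 had 3243 and 5162 counts and Rab8a-202 had 536 and 859, so that 85.8% and 85.7% of counts lay on the coding transcript. The transcripts are 4550 and 542 bases long. TPM divides counts by an effective length, which is shortened relatively more for short transcripts, so these lengths alone do not give the TPM values.

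What marks Rab8a-202 is its last exon, which runs 128 bases into the intron after a coding exon. The region is given because these bases are in Rab8a-202 and not in the coding transcript. It is chr8:72175900-72176057 on the plus strand of GRCm38, with 30 exonic bases in lower case and the intronic bases in capitals.
Rab8a-202: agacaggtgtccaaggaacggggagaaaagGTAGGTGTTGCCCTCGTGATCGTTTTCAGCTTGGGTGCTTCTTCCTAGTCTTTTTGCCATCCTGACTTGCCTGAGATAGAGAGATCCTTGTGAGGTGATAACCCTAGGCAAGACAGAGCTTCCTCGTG

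The choice of transcripts changed the balance of the Rab8 pair. Over all transcripts Rab8b was 2.21-fold and 2.09-fold above Rab8a. Over coding transcripts alone it was 8.14-fold and 7.80-fold above it, and its share of the subfamily was 88.8% ± 0.300 (SD, n = 2) in place of 68.2% ± 0.835. By coding transcripts Rab8a ranked 23 among the members in place of 7. The Rab11 pair changed less, from 66.3% ± 3.19 for Rab11a to 69.9% ± 3.43, and Rab4b and Rab5c stayed at 95.6% and 57.3%. All 38 expressed members remained at 1 TPM or more in both libraries over coding transcripts alone.

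**Figure D4:**
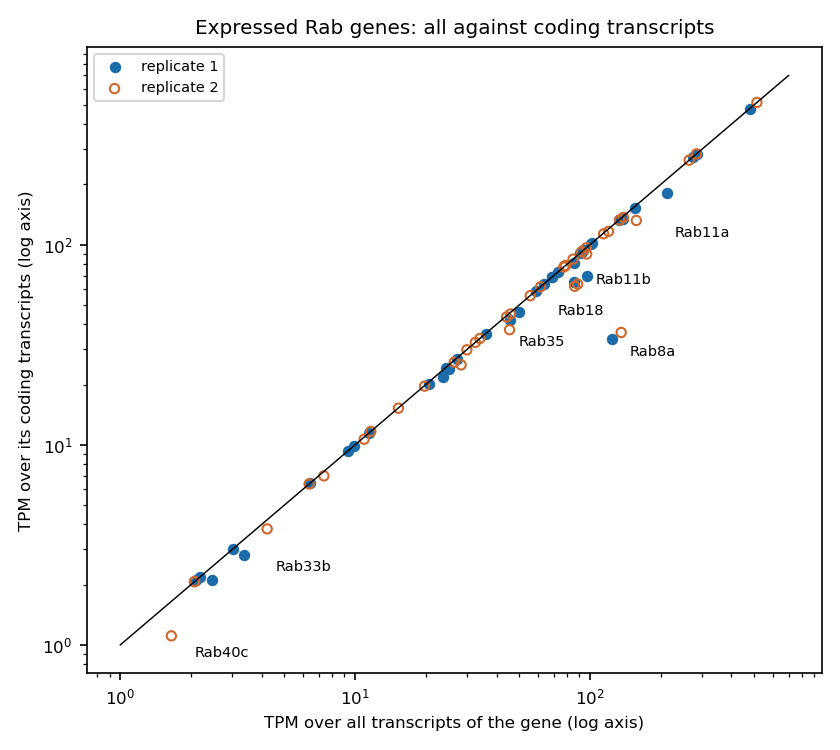
TPM over coding transcripts against TPM over all transcripts of each of the 38 expressed Rab genes (both log axes), in replicate 1 (filled) and replicate 2 (open); the line marks equality. Most genes lie on the line, and Rab8a lies furthest below it, at 33.7 and 36.4 against 124 and 136 TPM.

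Rab11a had the most divided TPM. Its leading transcript Rab11a-201 held 20.5% and 35.1%, the 2336-base Rab11a-208 held 25.0% and 29.6%, and Rab11a-206 held 31.4% and 11.1%. Transcripts shorter than 600 bases together held 70.8% and 65.1% of its TPM but 22.2% and 20.1% of its counts. By counts Rab11a-208 led with 75.0% and 77.0%. Rab11a-206 had 282 and 110 counts, and in the second quantification 219 and 0.0018. Rab11a thus differed between libraries by 212 against 157 TPM, while the TMM-normalised CPM of the gene in replicate 2 was 0.94 times that in replicate 1.

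For other members with low coding shares of TPM, the noncoding forms were of annotated classes other than retained intron. Rab11b had 71.2% and 71.7% of TPM on coding transcripts, and Rab11b-204, annotated for nonsense-mediated decay, held 27.2% and 28.3%. In Rab18 a 354-base transcript of the same class, Rab18-204, held 20.1 and 24.1 TPM, or 23.5% and 28.1% of the gene. It held 6.61 and 7.65 TPM in the second quantification. By counts Rab18-204 had only 43.1 and 78.5. Coding transcripts held 98.3% and 97.8% of the counts of Rab18, and 88.4% and 89.1% of those of Rab11b. Rab35-202, of that class too, held 7.86% in replicate 1 and 17.3% in replicate 2, with 55.1 and 177 counts. Rab40c had 86.5% and 67.3% on coding transcripts, from 120 and 106 counts.

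Reads of near-identical copies can be assigned to the wrong gene, which limits some members. Of the 31-base words in the leading coding sequence, 20 of 38 expressed members shared none with another gene and 11 shared over 10%. Rab5c, Rab14, Rab32, Rab20 and Rab31 shared none. Rab4b shared 92.5% with Gm21983, an overlapping gene listed at 0 counts, and Rab11b 88.8% with the pseudogene Rab11b-ps2, which had 90.3 and 8.81 counts. Rab5b shared 79.9% with Gm13991 at 4.89 and 6.60 counts, Rab43 67.5% with the overlapping Gm45140 at 128 and 330 counts, and Rab7 63.8% with Rab7-ps1 at 19.3 and 24.8 counts. Compared with 19700 and 31104 counts on Rab7 itself, the pseudogene held few.

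Both quantifications gave close gene levels. They use the same reads, so reads assigned to the wrong gene in both would not show in this comparison. No expressed Rab gene was 1.5-fold or more apart between them in both libraries, against 4.8% of genes. The ratio of the second to the first had a median of 0.87 and 0.80 over the members and 0.89 and 0.81 over all genes. Strand was not given in the sources used here, so reads of a member cannot be told apart from those of a gene on the other strand that overlaps its exons. Among expressed members this holds for Rab7 (with Gm5577), Rab11b (Gm17251), Rab10 (Rab10os), Rab6a (Mrpl48), Rab20, Rab5a, Rab22a, Rab24, Rab2b, Rab33b and Rab40c.

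The machinery that loads, extracts and reads Rab proteins was described by 117 listed genes, of which 101 reached 1 TPM in both libraries, beside 43.8% of all protein-coding genes. Their sums were 2997 and 2995 TPM. All 8 genes for GDP dissociation inhibitors, escorts and prenylation were expressed. Gdi2, which extracts inactive Rabs from membranes, stood at 478 and 472 TPM, close to Rab7. The prenylated Rab acceptor gene Rabac1 stood at 95.7 and 113 TPM, and Rabggtb, a subunit of the Rab prenylating enzyme, at 22.1 and 17.5 TPM.

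Of exchange factors 29 of 34 were expressed. Dennd5a led with 110 and 133 TPM, followed by the Rab5 activator Rabgef1 with 88.9 and 96.0 TPM, another Rab5 activator, Rin2, with 49.0 and 63.5 TPM, and Ccz1, part of the Rab7 activator, with 41.0 and 47.1 TPM. Mon1a and Mon1b, the partners of Ccz1, stood at 3.16 and 3.22 TPM and at 7.49 and 12.1 TPM. The widest gap at a mean count of at least 50 was that of Dennd6b, with 95 and 64 counts and a log2 ratio of -0.999, just inside 2-fold.

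GTPase-activating proteins were expressed in 29 of 32 cases, led by Tbc1d13 with 70.3 and 64.0 TPM, Tbc1d1 with 63.0 and 54.5 TPM, Tbc1d2b with 53.7 and 41.9 TPM and Tbc1d20, which acts on Rab1, with 48.2 and 47.4 TPM. Of 30 genes on this list with a mean count of at least 50, 2 were 2-fold or more higher in replicate 2, beside 1.85% of all genes of that depth. Tbc1d30 had 33 and 210 counts, a log2 ratio of 2.24, and Tbc1d16 had 157 and 517 counts, a log2 ratio of 1.29.

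Effectors were expressed in 32 of 40 cases. The motor gene Myo5a stood at 243 and 276 TPM, Rilpl2, which binds phosphorylated Rabs, at 175 and 177 TPM, the Rab11 effector Rab11fip1 at 58.0 and 56.5 TPM and Rufy3 at 46.3 and 45.3 TPM. Micall1 had the widest gap at a mean count of at least 50, with 8.55 and 3.80 TPM and a log2 ratio of -0.94. Effectors of the secretory Rab27 proteins were low: Sytl1 and Sytl5 had 0 counts in both libraries, Sytl4 had 3 and 3, and Sytl3 had 15 and 16, whereas Unc13d stood at 11.7 and 10.2 TPM. The phosphatase gene Ppm1h, whose product removes phosphate from Rabs, stood at 52.2 and 47.8 TPM, the kinase gene Lrrk1 at 7.14 and 8.49 TPM, and Lrrk2 at 2.77 and 1.75 TPM.

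The promoters of the members were compared by CpG pairs (the letters CG, the same on both strands) in the 250 bases before the RefSeq start, in the GRCm38.p6 table. Of 59 members 48 were matched. Where the table gave several starts the one with most CpG was used, and for 30 of the 48 members the 250 bases also held bases of an exon in the GENCODE annotation, whose starts can differ. Expressed members had a median of 20 CpG (n = 33), other members 11 (n = 15), and the 7 members without counts 8. At least 10 CpG were found in 84.8% of expressed and 53.3% of other members, against 40.2% of all promoters in the table. The same split was seen over all protein-coding genes, with 80.4% of expressed and 32.6% of other genes, so this split is not particular to Rab genes.

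Exceptions lay on both sides. Rab32 was expressed at over 100 TPM with 5 CpG, and Rab23 and Rab6b had 42 and 40 CpG at mean levels of 0.81 and 1.10 TPM. For Rab6b all 250 bases lay in a GENCODE exon, against 17 for Rab23 and 58 for Rab32. The promoters of Rab10, Rab9 and Rab39b were chosen after their values were seen, to show a rich and a poor promoter of members of similar level and a poor one of a member without counts, with 34, 7 and 8 CpG in capitals. All 3 genes are on the minus strand, the stretches are chr12:3309970-3310219, chrX:166479868-166480117 and chrX:75578232-75578481, and none of them overlaps a GENCODE M21 exon.
Rab10: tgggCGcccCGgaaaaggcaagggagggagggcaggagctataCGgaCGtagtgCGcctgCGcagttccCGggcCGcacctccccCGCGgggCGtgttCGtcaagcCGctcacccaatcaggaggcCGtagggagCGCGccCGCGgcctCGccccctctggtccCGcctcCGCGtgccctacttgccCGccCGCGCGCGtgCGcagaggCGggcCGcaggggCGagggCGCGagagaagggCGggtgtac
Rab9: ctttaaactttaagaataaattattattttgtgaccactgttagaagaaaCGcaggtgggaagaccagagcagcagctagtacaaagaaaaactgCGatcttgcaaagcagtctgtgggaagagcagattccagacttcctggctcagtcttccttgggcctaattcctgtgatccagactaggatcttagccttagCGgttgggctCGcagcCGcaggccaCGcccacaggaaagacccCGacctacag
Rab39b: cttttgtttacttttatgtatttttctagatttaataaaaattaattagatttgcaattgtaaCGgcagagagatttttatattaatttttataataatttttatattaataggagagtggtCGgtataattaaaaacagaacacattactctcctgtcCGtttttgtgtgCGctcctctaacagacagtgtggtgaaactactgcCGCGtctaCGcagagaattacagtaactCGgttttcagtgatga

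**Figure D5:**
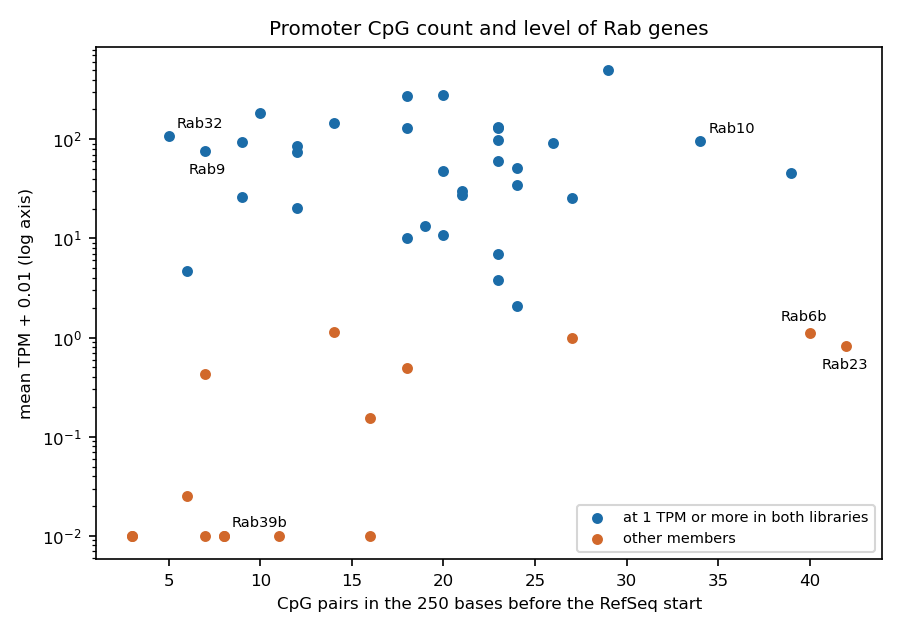
CpG pairs in the 250 bases before the RefSeq start against mean TPM (log axis, with 0.01 added) for the 48 Rab genes with an entry, blue where at 1 TPM or more in both libraries and orange otherwise. Rab10, Rab9 and Rab39b are the printed promoters, and Rab23 and Rab6b combine many CpG pairs with low levels. The 250 bases of Rab6b all lie in a GENCODE exon.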

How the data were processed

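Polyadenylated RNA of stimulated macrophages was sequenced in 2 libraries of 1 group, taken with their replicate numbers from the labels. Per the file headers, the authors deposited gene and transcript tables with expected counts, TPM and the percent of gene TPM per transcript under RSEM column names, and a second transcript table with estimated counts and TPM under kallisto column names. Per the deposited descriptions the assembly was mm10 (GRCm38) with GENCODE annotation M21. Program versions and strand use are not given in the sources used here. Only mouse genes entered library sizes.

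Expected counts were rounded, and ratios used CPM with TMM factors (1.06 and 0.944) from edgeR 4.0.16 in R 4.3.3, for genes whose mean count was at least 50. The ratios were tested on simulated data. The coefficient of variation came from the common dispersion over 12178 genes. The second table was summed by gene. Coding sequences were aligned with Biopython 1.88 (match 2, mismatch -1, gap -5 and -1), using the longest annotated frame, which also gave the loop stretches. Gap positions counted as differences in the identity. Python 3.11.15, numpy 2.4.6, pandas 2.3.3 and matplotlib 3.10.9 did the rest. Transcript classes, positions and sequences came from GENCODE M21, and promoters from RefSeq.

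Members and lists were chosen with earlier results of these data known. Named were, per step, the 3 most abundant members and the one with the largest log2 ratio, all subfamily members, those 2-fold apart and the 5 with the lowest leading and coding shares. Named regulators were the 4 most abundant of each list and the one with the largest ratio; a gene that this rule names is not reported here. Other regulators and markers in the text, among them Mon1a, Mon1b, Tbc1d16, Unc13d, Pf4 and S100a9, were named after their values were seen. No conditions were compared, as there is 1 group. Alternatives were other quantifications, levels, scalings, count minimums and each library alone, with DESeq2 1.42.0 size factors. Coding transcripts alone and coding shares by counts were added after seeing the data.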

Additional observations from a re-analysis of the deposited data

How the results depend on the processing

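Of 96 alternatives, 61 left a result within the spread or count limit used and 35 moved it. The number of expressed members lay between 33 and 45 over all alternatives and that of expressed regulators between 78 and 109. Step sums fell with the second quantification to 668 TPM (late endosome), 592 (early endosome), 422 (surface delivery), 411 (recycling), 410.1 (Golgi), 110.1 (lysosome-related), 25.0 (cilium) and 11.4 (secretion). TPM without mitochondrial genes gave 828, 752, 550 and 522 TPM for late endosome, early endosome, surface delivery and Golgi, and 29.6 and 14.2 TPM for cilium and secretion. Posterior mean TPM gave 496, 30.2 and 16.0 TPM for surface delivery, cilium and secretion. Coding transcripts alone gave 420 (surface delivery), 437 (recycling), 464 (Golgi), 26.5 (cilium) and 12.6 TPM (secretion).

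The median leading share of subfamilies was 91.3% with the second quantification, 87.9% with posterior mean TPM, and 91.4% to 91.8% with 1 library left out. The coding share was 99.9% by counts. The number of members 2-fold apart was 0, without Rab19, on log2 of TPM + 1 or at a count minimum of 200, and 2 on log2 of TPM + 0.1, at a minimum of 10, or with no minimum. The median log2 ratio of members was -0.065 on CPM without TMM factors, and -0.0037 on log2 of TPM + 1 and -0.0038 on log2 of TPM + 0.1. The cause was not tested, except that fewer or more genes are tested at other count minimums and that a pseudocount of 1 shrinks low genes. No paired analysis was possible because the series holds 1 group of 2 libraries. Depth limits the members with few counts, whose presence or absence near 3 counts cannot be told.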
